A study of Mus musculus with 4 samples.

Results

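Retinoid carriers, synthesis and breakdown are represented here by 9 genes: Stra6, Rbp4, Crabp1, Crabp2, Aldh1a1, Aldh1a2, Aldh1a3, Cyp26a1 and Cyp26b1. Their probes were taken by gene name from the scanner output, without control spots. Of the 9 genes, 8 had at least 1 probe, 11 probes in all among 56605 on the array. No probe carried the name Crabp2, which is not analysed here. Of the 11 probes, 7 were bright enough to be tested, and 36692 probes of the whole array were. The study revisits what kind of cell GC-1 and GC-2, both mouse lines, are, and each probe was compared as GC-2 against GC-1.

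GC-1 spg is an established line from type B spermatogonia transformed with SV40 large T antigen. GC-2 spd(ts) is an established line from spermatocytes that carry large T antigen too, together with a p53 that is temperature-sensitive, so large T antigen is shared by both groups. Each line was measured on 2 arrays. Both were grown in high-glucose DMEM with 10% fetal bovine serum, penicillin and streptomycin at 37 °C and 5% CO2, and were collected at 90% confluency. The labels name no other treatment, and each group is 1 cell line. The labels call both germ cell lines. Of 13 germ cell marker genes with a probe, 4 could be tested. The probe of the germ cell gene Dnd1 and 1 of 2 Nanos3 probes were well above background on all 4 arrays. Their signals were 39.8 to 106 and 108 to 223, and neither was called. Ddx4 and Piwil2 were dim, with no signal over 16.4, and Piwil2 was called lower in GC-2 (limma's adjusted p = 0.0161), where it was not well above background. Sycp1, Sycp3 and Stra8 were well above background on 1 array each. Dazl, Mael, Nanos2, Tex101, Dmc1 and Kit were well above background on no array. Nothing in the labels says that replicates were grown apart, and p-values therefore measure the spread between these samples alone, which may be technical.

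Signals are Cy3 brightness after background subtraction by the scanner software. The 75th percentile of the signal lay at 666 and 693 for GC-1 and at 416 and 199.9 for GC-2. Between 57.5% and 64.9% of an array's probes exceeded background clearly, as flagged by the scanner software (well above background). Levels are given below as log2 signal minus that percentile of the same array, and differences as GC-2 minus GC-1 on this log2 scale. The number of arrays, 2 per line, limits the precision of every value. All 4 arrays lay on 1 slide, with each line in a row of its own, so position and line cannot be told apart. The probes for E1A, a control sequence meant for added spike-in RNA, lay at 2.48 and 2.49 log2 in GC-1 and at 4.32 and 4.79 log2 in GC-2. Every difference below is therefore relative to the bulk of the probes. Scaling to the spike-ins moved the median difference of all tested probes from 0.07 to -1.999 log2. On the percentile scale dim probes tended to lie higher in GC-2. With no filter on dim probes the median difference over 56571 probes was 0.44 log2. The Aldh1a3 probes A_52_P87843 and A_52_P113518, well above background on no array, lay 0.79 and 0.88 log2 higher in GC-2.

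Retinol, or vitamin A, travels in blood bound to the retinol-binding protein RBP4 and enters cells through its receptor STRA6. Inside cells it is bound by cellular retinol-binding proteins, oxidized reversibly to retinal, and then oxidized irreversibly to retinoic acid by the retinal dehydrogenases ALDH1A1, ALDH1A2 and ALDH1A3. Retinoic acid is bound in the cytoplasm by CRABP1 and CRABP2, acts on nuclear RAR and RXR receptors, and is broken down by the cytochromes CYP26A1 and CYP26B1. In the testis retinoic acid starts spermatogonial differentiation and entry into meiosis. CYP26B1 keeps fetal male germ cells from entering meiosis by removing it.

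The probes are 60-base oligonucleotides, and those of Stra6, Crabp1 and Cyp26a1 show what was hybridized. The Stra6 probe lies on the plus strand at chr9:58000379-58000990 in mm9, where its 60 bases span 612 bases of the genome. The Crabp1 probe A_52_P185907 lies at chr9:54616192-54616251 and the Cyp26a1 probe at chr19:37775566-37775625, both on the plus strand. Positions are those of the scanner output, and no annotation of that build was used here, so exon and intron positions are not given. The sequences are shown 5′ to 3′ in lower case.
Stra6 A_51_P471177: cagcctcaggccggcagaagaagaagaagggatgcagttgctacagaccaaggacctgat
Crabp1 A_52_P185907: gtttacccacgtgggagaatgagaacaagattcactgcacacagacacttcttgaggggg
Cyp26a1 A_52_P382149: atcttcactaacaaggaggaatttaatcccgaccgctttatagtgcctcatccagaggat

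The other member probes, also on mm9, lay at chr19:38191129-38191188 on the minus strand for Rbp4, at chr9:54620842-54620901 on the plus strand for the second Crabp1 probe, A_66_P112360, and at chr19:20717764-20717823 on the plus strand for Aldh1a1. The Aldh1a2 probe lay at chr9:71143931-71143990 on the plus strand and the Cyp26b1 probe at chr6:84521952-84522011 on the minus strand. The 3 Aldh1a3 probes lay on the minus strand of chromosome 7, between 73535785 and 73553966.

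Promoter sequences are shown for Cyp26a1, Cyp26b1 and Crabp1, the breakdown enzymes and the binding protein whose tested probes were higher in GC-2. Each is the 250 bases before the RefSeq start in GRCm38.p6, read on the strand of the gene. RAR and RXR bind repeated half-sites, searched here on both strands with the letters AGGTCA or AGTTCA, and with G in first place GGGTCA or GGTTCA, alone or as direct repeats spaced by 1, 2 or 5 bases. TATAAA was searched on both strands too. Capitals mark a direct repeat in Cyp26a1 and TATAAA in Cyp26b1, and the Crabp1 window held neither.
Cyp26a1, chr19:37697558-37697807, plus strand: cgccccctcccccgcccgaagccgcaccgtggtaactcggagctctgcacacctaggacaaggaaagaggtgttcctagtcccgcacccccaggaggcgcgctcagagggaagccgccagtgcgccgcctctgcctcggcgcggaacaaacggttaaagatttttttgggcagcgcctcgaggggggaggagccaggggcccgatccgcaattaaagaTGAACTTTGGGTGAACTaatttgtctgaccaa
Cyp26b1, chr6:84593811-84594060, minus strand: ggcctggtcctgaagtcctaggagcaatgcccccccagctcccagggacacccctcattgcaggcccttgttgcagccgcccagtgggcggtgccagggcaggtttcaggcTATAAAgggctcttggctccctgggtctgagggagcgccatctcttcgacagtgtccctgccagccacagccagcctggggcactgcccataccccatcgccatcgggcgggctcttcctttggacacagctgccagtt
Crabp1, chr9:54764498-54764747, plus strand: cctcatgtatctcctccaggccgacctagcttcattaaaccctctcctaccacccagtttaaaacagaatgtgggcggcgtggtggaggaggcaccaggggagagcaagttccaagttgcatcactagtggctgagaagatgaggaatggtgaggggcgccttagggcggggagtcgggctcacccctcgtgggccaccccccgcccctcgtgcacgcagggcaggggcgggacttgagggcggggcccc

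The Cyp26a1 window held 1 direct repeat spaced by 5 bases, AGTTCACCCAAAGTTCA on the minus strand, 32 to 16 bases before the start. A retinoic acid response element close to its start is a known feature of this gene. Of 32851 promoter windows of the same length, 29 held such a repeat (0.0883%), and repeats spaced by 1 or 2 bases were in 0.164% and 0.174%. Of 12 windows of 7 member genes, 3 held at least 1 half-site, against 38.6% of all windows, 1 held a direct repeat spaced by 5 bases, and none held one spaced by 1 or 2. TATAAA was in 2 of the 12 windows and in 12.4% of all. A match is a description of the sequence, and binding was not measured.

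Of the 7 tested member probes, 4 were higher in GC-2 (Crabp1, Cyp26b1, Aldh1a2 and Cyp26a1), 2 were lower (Rbp4 and Stra6) and the Aldh1a1 probe did not pass (limma, Benjamini-Hochberg adjusted p under 0.05), Aldh1a2 and Cyp26a1 lying below 0 once scaled to the E1A probes. Calls were frequent on the whole array, at 45.7% of tested probes, 24.1% higher and 21.6% lower. On the scaled values the arrays of the lines did not overlap for any of the 7 probes, as for 76.9% of all tested probes. Without GC-1 replicate 1 only the Crabp1 and Cyp26b1 probes were called higher, 2 in place of 4, while the numbers of all probes called higher and lower dropped to 5755 and 4928 from 8845 and 7935. Without GC-2 replicate 2 the number of all probes called higher was 5840. With scaling to the E1A probes Crabp1 and Cyp26b1 kept their direction at 1.27 and 1.18 log2, and Aldh1a2 and Cyp26a1 turned to -0.15 and -0.85 log2, neither past the threshold. With normexp background correction the split of all calls was 65.3% higher against 52.7% in the main analysis, and with median centring 39%. Scaled to the E1A probes, 5.32% of all calls were higher.

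**Figure D1:**
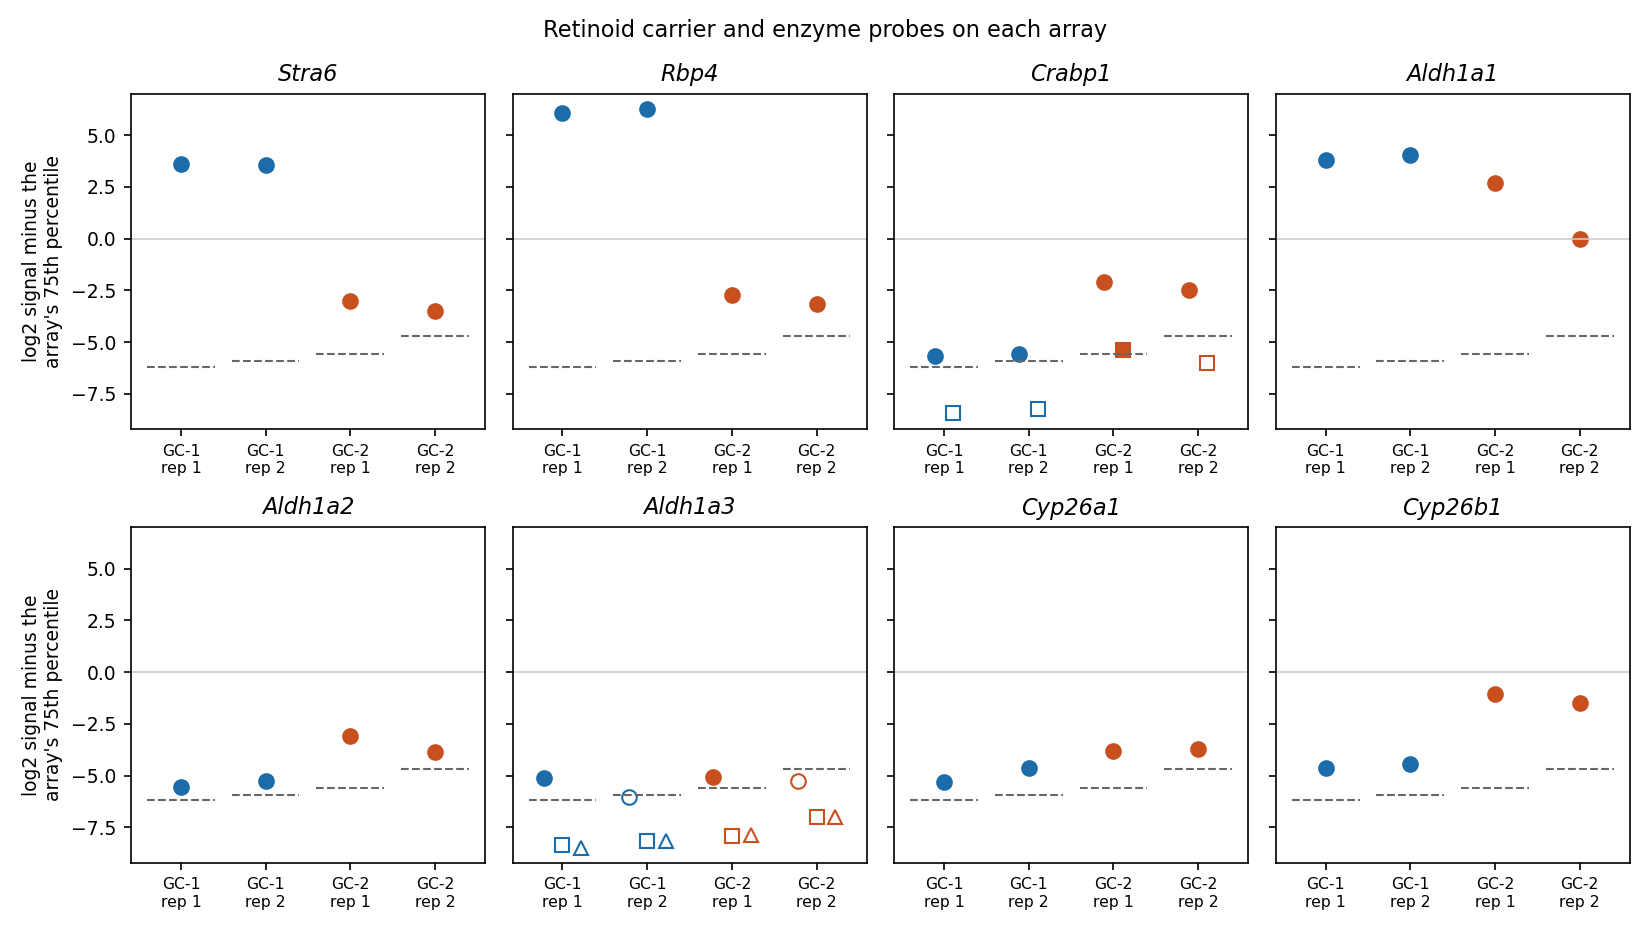
Level of every member probe on each array, as log2 signal minus the array's 75th percentile (y axis), for the GC-1 (blue) and GC-2 (orange) replicates (x axis). Filled symbols are probes well above background on that array, open symbols are not, different shapes are different probes of a gene (circles, squares, triangles), and the dashed lines mark the lowest probe well above background on each array. Stra6 and Rbp4 lie high in GC-1 alone, Aldh1a1 differs between the GC-2 arrays, and Crabp1 and Cyp26b1 are higher on both GC-2 arrays.

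The delivery genes Rbp4 and Stra6 gave the largest differences among the members, both lower in GC-2. The Rbp4 probe, for the plasma carrier of retinol, had signals of 45247 and 53422 in GC-1 and of 63.6 and 22.3 in GC-2. Both GC-2 values were well above background and far below both GC-1 values. The mean level was 6.18 log2 (SD 0.13, n = 2) in GC-1 and -2.94 log2 (SD 0.32, n = 2) in GC-2. Rbp4 fell by 9.11 ± 0.27 log2 (SE, 95% interval -9.79 to -8.44), a 554-fold difference, with limma's adjusted p = 0.000118. A change this large or larger was seen in 0.204% of tested probes. The local background of the Rbp4 spot was marked as an outlier on both GC-2 arrays, whose part in the value was not tested.

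The Stra6 probe, for the cell-surface receptor that takes up retinol from RBP4, had signals of 8097 and 8082 in GC-1 and of 51.5 and 17.6 in GC-2. The GC-1 arrays were almost equal and both far above the GC-2 arrays. The mean level was 3.57 log2 (SD 0.04, n = 2) in GC-1 and -3.26 log2 (SD 0.35, n = 2) in GC-2. Stra6 fell by 6.83 ± 0.27 log2 (SE, 95% interval -7.51 to -6.16), a 114-fold difference, with limma's adjusted p = 0.000153, and 0.856% of tested probes changed as much. In GC-2 the signals of both genes were dim. To place dim signals, the brightest of the 96 probes for ERCC control sequences was taken on each array, with signals of 74.2 and 64.8 in GC-1 and 38.3 and 32.3 in GC-2. Rbp4 and Stra6 exceeded it in both replicates of GC-1 and, in GC-2, in replicate 1 alone.

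The binding protein gene Crabp1 went the other way. Its protein holds retinoic acid in the cytoplasm, and in the testis it is found in spermatogonia. The probe A_66_P112360 is printed at 10 spots on each array, so that its error within an array can be read. The geometric mean of the spots was 13.0 and 14.4 in GC-1 and 96.8 and 35.8 in GC-2. Spots ranged from 8.43 to 19.9 and from 6.83 to 26.0 in GC-1, and from 89.7 to 103.7 and from 28.8 to 47.0 in GC-2. The lowest GC-2 spot was thus brighter than the highest GC-1 spot even before scaling. All 10 spots were well above background on each GC-2 array, but only 8 and 7 on the GC-1 arrays. The SD of log2 signal between spots was 0.40 and 0.56 in GC-1 and 0.07 and 0.21 in GC-2. The local background was marked as an outlier at 2 spots on GC-2 replicate 1 and at 1 on GC-2 replicate 2, whose part was not tested. Spots of 1 array are not replicates and were averaged.

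Crabp1 rose by 3.34 ± 0.25 log2 in GC-2 (SE, n = 2 arrays per line, 95% interval 2.70 to 3.97), a 10.1-fold difference with limma's adjusted p = 0.000603. Of all tested probes, 7.04% changed as much. The level was -5.63 log2 (SD 0.06, n = 2) in GC-1 and -2.29 log2 (SD 0.27, n = 2) in GC-2. Only the GC-2 arrays had this probe above the brightest ERCC probe. Its mean on GC-1 replicate 2 was below the highest negative control spot of that array, at 15.0. The fold thus rests on a GC-1 level near background, and with normexp background correction the difference was 1.78 log2. The other Crabp1 probe, A_52_P185907, had signals of 1.92 and 2.28 in GC-1 and of 10.0 and 3.07 in GC-2. It was well above background on GC-2 replicate 1 alone and could not be tested. On GC-2 replicate 2 it was not well above background either, so no minimum fold difference is given. Its signals in GC-1 and on GC-2 replicate 2 were below the highest negative control spot of each array, at 7.09, 15.0 and 5.13. With signal on 1 array alone, it cannot tell whether the 2 probes agree.

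**Figure D2:**
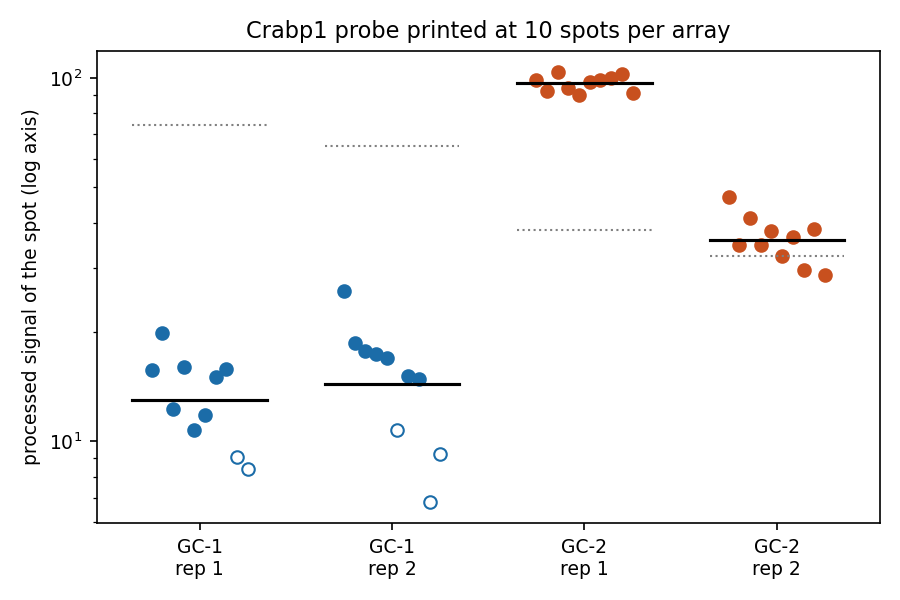
Processed signal of each of the 10 spots of the Crabp1 probe A_66_P112360 on each array (log axis), GC-1 in blue and GC-2 in orange. Filled points are spots well above background, horizontal bars are the geometric means of 13.0, 14.4, 96.8 and 35.8, and dotted lines mark the brightest ERCC probe of the array, above which the means of both GC-2 arrays lie.

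For the synthesis genes, which encode the enzymes that make retinoic acid from retinal, neither a shared nor an opposite direction was established. Aldh1a1 was lower in GC-2 but did not pass, Aldh1a2 was higher but not under every scaling, and Aldh1a3 was not tested. Aldh1a1 had signals of 9195 and 11309 in GC-1 and of 2676 and 195 in GC-2. The GC-1 arrays were close to each other, and both GC-2 arrays were lower but far apart. On the scaled values they stood at 3.79 and 4.03 log2 in GC-1 and at 2.69 and -0.04 log2 in GC-2. The distance of 2.72 log2 between the GC-2 arrays was reached by 0.251% of tested probes. The difference was -2.58 ± 0.85 log2 (SE, n = 2 arrays per line, 95% interval -4.72 to -0.45), with limma's adjusted p = 0.0552, which did not pass the threshold. It was called lower under 9 of 14 alternatives, with limma's adjusted p between 5.89e-05 and 0.207 over all 14. Without GC-2 replicate 1 the difference was -3.94 log2 (limma's adjusted p = 0.00211) and without GC-2 replicate 2 it was -1.22 log2 (limma's adjusted p = 0.0437). The direction was thus the same with either GC-2 array, and the size was not.

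Aldh1a2, the main retinoic acid-making enzyme of the embryo, was dim in both lines. Signals were 14.4 and 18.1 in GC-1 and 49.4 and 13.6 in GC-2, which overlap before scaling. After scaling the levels were -5.53 and -5.26 log2 in GC-1 and -3.07 and -3.88 log2 in GC-2, and no longer overlapped. Aldh1a2 rose by 1.92 ± 0.34 log2 in GC-2 (SE, n = 2 arrays per line, 95% interval 1.07 to 2.77), 3.79-fold, with limma's adjusted p = 0.00777, and was at -0.15 log2 with scaling to the E1A probes. Without GC-1 replicate 1 the call was lost at 1.78 log2 (limma's adjusted p = 0.0591). Only GC-2 replicate 1 exceeded the brightest ERCC probe of its array. The part of the upward shift of dim probes in this difference was not tested.

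Aldh1a3, the dehydrogenase known from the eye and the nasal region, was at the limit of detection with every probe. The probe A_55_P2596848 had signals of 19.2 and 10.6 in GC-1 and of 12.4 and 5.25 in GC-2, and was well above background on replicate 1 of each line alone. The scaled levels of the lines overlapped. The probes A_52_P87843 and A_52_P113518 were well above background on no array, with signals between 1.55 and 2.42. None of the 3 was tested, and a difference in Aldh1a3 was not detectable at this signal.

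Both breakdown enzymes were higher in GC-2, though Cyp26a1 was at -0.85 log2 with scaling to the E1A probes. Cyp26b1, the form that removes retinoic acid in the fetal testis, had signals of 26.6 and 32.1 in GC-1 and of 196.9 and 70.1 in GC-2, with no overlap even before scaling. The level was -4.54 log2 (SD 0.15, n = 2) in GC-1 and -1.30 log2 (SD 0.31, n = 2) in GC-2. Cyp26b1 rose by 3.24 ± 0.27 log2 (SE, 95% interval 2.57 to 3.91), 9.47-fold, with limma's adjusted p = 0.000771, and 7.53% of tested probes changed as much. It exceeded the brightest ERCC probe on both GC-2 arrays and on neither GC-1 array.

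Cyp26a1, the form that retinoic acid itself induces in many cells, was dim everywhere. Signals were 16.9 and 27.8 in GC-1 and 29.8 and 15.3 in GC-2, which overlap. Scaled, they gave -5.30 and -4.64 log2 in GC-1 and -3.80 and -3.70 log2 in GC-2. Cyp26a1 rose by 1.22 ± 0.30 log2 in GC-2 (SE, n = 2 arrays per line, 95% interval 0.46 to 1.97), 2.32-fold, with limma's adjusted p = 0.0230, and 34.9% of tested probes changed as much. It was below the brightest ERCC probe on all 4 arrays. Aldh1a3 probes without clear signal lay 0.79 and 0.88 log2 higher in GC-2 on the same scale. How much of the Cyp26a1 difference is this shift of dim probes was not tested. The call was lost without GC-1 replicate 1 (0.89 log2, limma's adjusted p = 0.0853), without GC-2 replicate 1 (1.26 log2, limma's adjusted p = 0.0637), without GC-2 replicate 2 (1.17 log2, limma's adjusted p = 0.0854) and without the filter on dim probes (limma's adjusted p = 0.0551). The direct repeat printed above belongs to this gene, and its part in the difference was not tested.

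**Figure D3:**
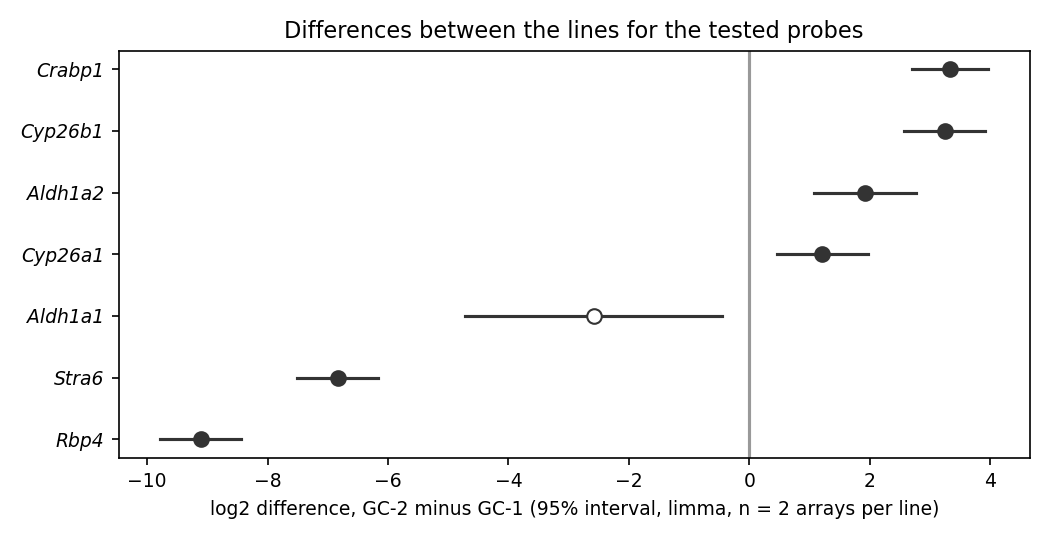
Difference between the lines for the 7 tested member probes, in log2 GC-2 minus GC-1 (x axis), with 95% intervals from limma (n = 2 arrays per line). Filled points passed the adjusted threshold and the open point, Aldh1a1 at -2.58, did not, with the widest interval of the 7.

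The members also differed in how they moved with the processing. Over 14 alternatives Rbp4 stayed between -11.18 and -7.65 log2, Stra6 between -8.90 and -5.32, Crabp1 between 1.27 and 3.53 and Cyp26b1 between 1.18 and 3.46, each called every time. Aldh1a2 ranged from -0.15 to 2.32 log2 and Cyp26a1 from -0.85 to 1.55 over 13 alternatives. Their lowest values came from scaling to the E1A probes. Both dropped out when only probes above the brightest ERCC probe on both arrays of a line were tested, which left 2 members called higher. With normexp, which adds an offset, Crabp1 was at 1.78 and Cyp26b1 at 2.08 log2.

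**Figure D4:**
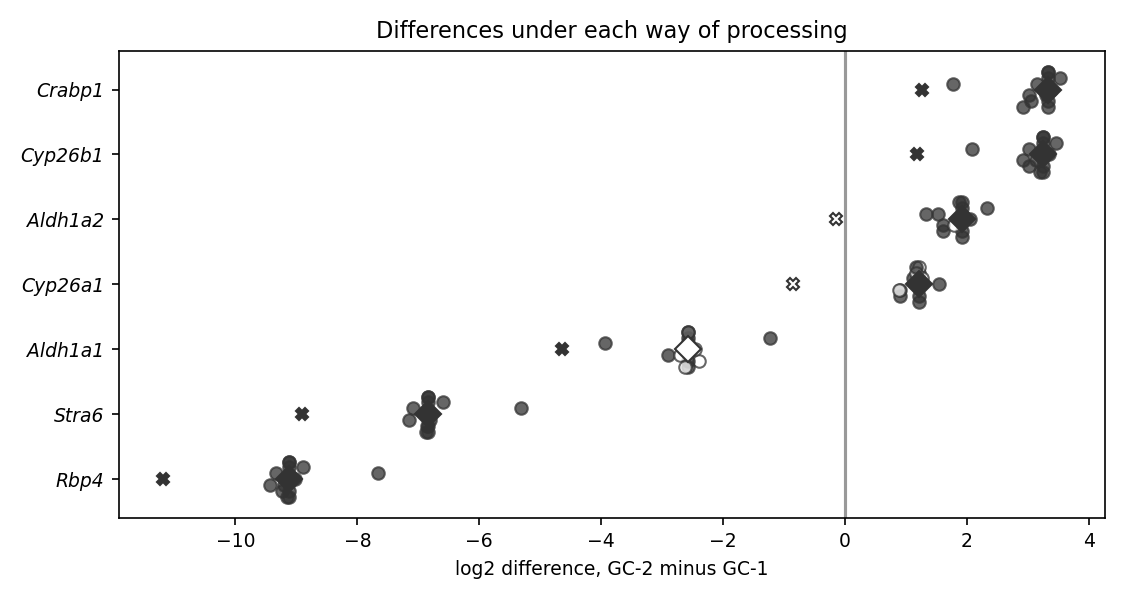
Difference between the lines (log2 GC-2 minus GC-1, x axis) for each tested member under each way of processing. Diamonds are the main analysis, circles the alternatives and crosses the scaling to E1A spike-in probes; filled symbols passed the adjusted threshold. Scaling to E1A shifts every member down by the same amount, which takes Aldh1a2 and Cyp26a1 below 0 and leaves Crabp1 at 1.27 and Cyp26b1 at 1.18.

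Crabp1 and Cyp26b1 were close to each other in pattern. Among 15265 genes, likeness was measured as the Euclidean distance between log2 levels over the 4 arrays, each gene centred on its own mean. Cyp26b1 was the gene next nearest to Crabp1 after Pcyox1l, at distances of 0.137 and 0.134, followed by Prcp at 0.184. Crabp1 was in turn the gene nearest to Cyp26b1, followed by Tor1b and Pcyox1l, both at 0.206. Nearest to Rbp4 were the sulfatase gene Sulf1 (0.443), the natriuretic peptide gene Nppb (0.486) and Srrm4 (0.557). Nearest to Stra6 were Fam110c (0.3995), the integrin gene Itga7 (0.3998) and Prss12 (0.426). For Aldh1a2 they were Fgd3 (0.118), the RNA-editing enzyme gene Apobec1 (0.207) and Lyzl4 (0.216), and for Cyp26a1 the adaptor gene Myd88 (0.0685), Myo10 (0.0719) and Dapp1 (0.0843). Each distance rests on 4 arrays and mainly compares the size of the change.

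Outside the 9 genes, 87 further genes of retinoid handling and response were listed, and 86 had a probe. Pnpla4 was matched to none. Where a gene had several tested probes, the brightest on average stood for it. For 19 of the genes, the tested probes were not all called alike. Of 63 tested, 7 were higher in GC-2, 21 were lower and 35 did not pass. Over all 17437 genes tested this way, 18.3% were higher and 25.7% lower, 44.1% in all. These shares are the background for the counts of each list below. The median difference was -0.42 log2 for the listed genes and -0.13 log2 for all genes. Without GC-2 replicate 1 the number higher was 4, and no listed gene was called higher with scaling to the E1A probes, where 57 were lower.

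Of the genes for cellular retinol binding and retinol esters, 5 of 7 could be tested, with 1 higher and 3 lower. Lpl, the lipoprotein lipase that also releases retinol from circulating esters, had signals of 46321 and 51382 in GC-1 and of 629 and 55.9 in GC-2. It fell by 6.79 ± 0.77 log2 (SE, limma's adjusted p = 0.00193), and its GC-2 arrays were 2.43 log2 apart. Without GC-2 replicate 1 it was at -8.004 log2, without GC-2 replicate 2 at -5.57 and in the authors' deposited table at -5.23, called each time. The retinol-binding protein gene Rbp2 was well above background in both GC-1 replicates but in neither GC-2 replicate, a difference of at least 5.00-fold. Its relative Rbp7 fell by 1.103 ± 0.28 log2. Both are dim, and with normexp background correction Rbp2 was at -0.12 and Rbp7 turned to 0.58 log2, neither called. Rbp7 also lost its call without GC-1 replicate 1, GC-1 replicate 2 or GC-2 replicate 1, at -1.22 to -0.86 log2. The acyltransferase gene Dgat1 rose by 1.19 ± 0.24 log2, but was at -0.88 with scaling to the E1A probes and at 1.07 without GC-1 replicate 2 (limma's adjusted p = 0.0537). Lrat, the main retinol esterifying enzyme, was well above background on no array.

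Among plasma and eye carriers 3 of 5 genes were tested and 2 were higher. Fabp5, a fatty acid-binding protein that also carries retinoic acid, rose by 2.47 ± 0.39 log2 (SE, limma's adjusted p = 0.00527), and was at 0.40 and not called with scaling to the E1A probes. Rbp3, the retinoid carrier of the eye, rose by 1.85 ± 0.25 log2 and was at -0.22 with that scaling.

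By their brightest probe, none of the 18 tested genes for retinol and retinal redox enzymes was higher and 5 were lower. Of all genes 18.3% were higher and 25.7% lower. Other probes were called higher for 3 of the genes not called, 2 of 3 for Akr1b10, 1 of 3 for Rdh13 and 1 of 2 for Rdh9. Dhrs3, which reduces retinal back to retinol, had signals of 35913 and 33466 in GC-1 and of 2385 and 431 in GC-2, and fell by 3.86 ± 0.48 log2 (SE, limma's adjusted p = 0.00265). Of its 2 tested probes 1 was called lower, and their mean was at -2.78 log2, the authors' deposited table at -2.83. Without GC-2 replicate 1 it was at -4.56 and without GC-2 replicate 2 at -3.15. Rdh10, the main enzyme that oxidizes retinol to retinal, had signals of 3710.0 and 4909 in GC-1 and of 543 and 398 in GC-2, and fell by 1.96 ± 0.31 log2 (SE, limma's adjusted p = 0.00536). Dhrs9 fell by 4.87 ± 0.41 log2, Rdh5 fell by 3.32 ± 0.30 log2 and the alcohol dehydrogenase gene Adh7 fell by 2.81 ± 0.39 log2. Adh7 was at -0.21 with normexp and not called there. Dhrs9 was at -2.54 with normexp, at -3.49 by the mean of its probes and at -3.26 in the authors' deposited table, and was called in each.

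Of the other dehydrogenases and the carotene and breakdown enzymes, 3 of 4 tested genes were lower, against 25.7% of all genes. Cyp2s1, a cytochrome P450 that can act on retinoic acid, fell by 8.15 ± 0.32 log2, from signals of 43404 and 65030.3 in GC-1 to 139 and 45.6 in GC-2. Aldh1a7, a close relative of Aldh1a1, fell by 5.22 ± 0.81 log2 (SE, limma's adjusted p = 0.00514). Its GC-2 arrays were 2.55 log2 apart, and without GC-1 replicate 1 it was at -5.03 log2 (limma's adjusted p = 0.0515). It was at -1.92 with normexp, at -6.50 without GC-2 replicate 1 and at -3.95 without GC-2 replicate 2, called each time. Aldh1a1 and Aldh1a7 are close in sequence, and signal shared between their probes was not tested. Bco2, a carotene-cleaving enzyme, fell by 1.59 ± 0.26 log2 and was at -0.057 with normexp. Cyp26c1, the third CYP26 gene, was well above background on GC-2 replicate 1 alone and could not be tested. Its signals, 9.96 and 6.89 in GC-1 and 14.6 and 3.72 in GC-2, overlapped before scaling.

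**Figure D5:**
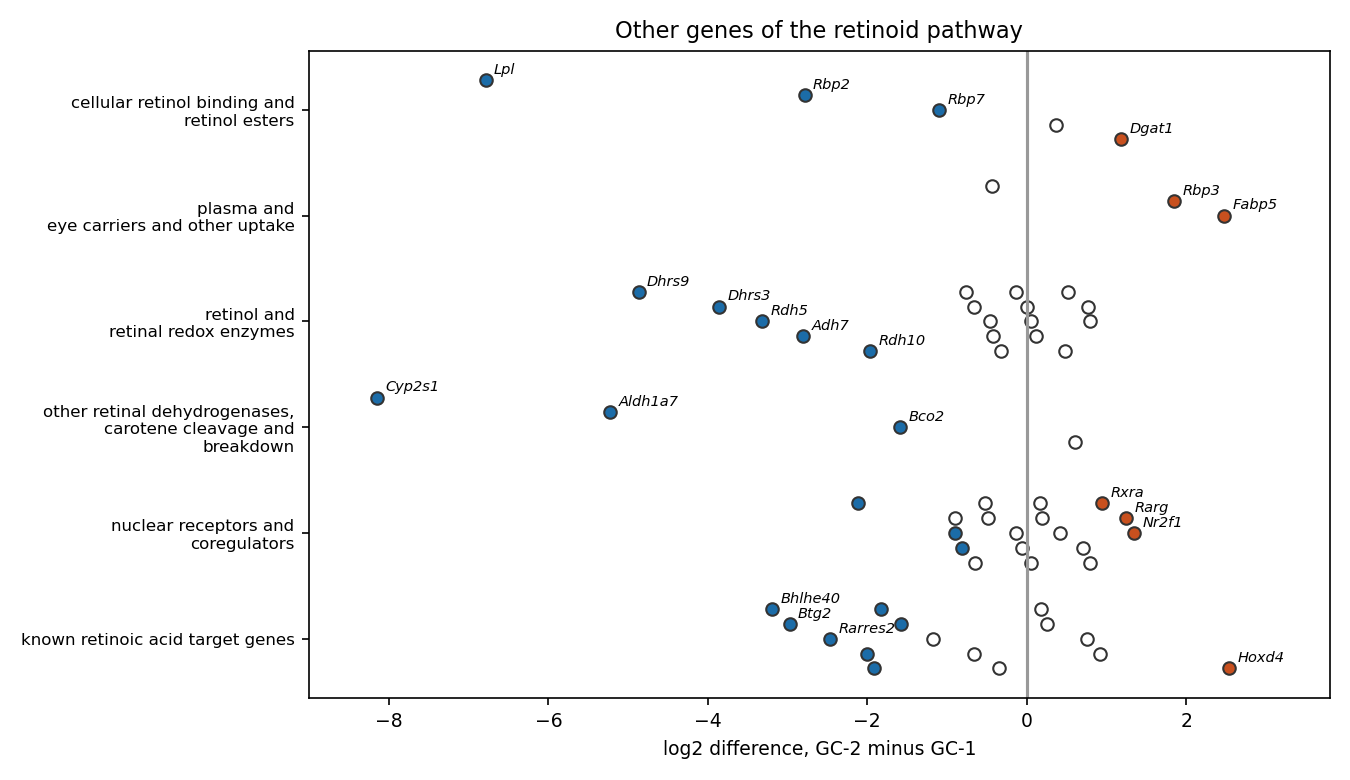
Differences (log2 GC-2 minus GC-1, x axis) of the 63 tested genes of the retinoid lists, 1 row of points per list, each gene at its brightest tested probe. Filled points passed the adjusted threshold, orange for higher and blue for lower in GC-2, and open points did not. At these probes the called genes of both enzyme lists, 5 of 18 and 3 of 4 tested, lie on the lower side. Of all genes 25.7% were lower and 18.3% higher. Other probes of 3 redox enzyme genes were called higher. With scaling to the E1A spike-in probes no gene was called higher.

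Among receptors and coregulators 3 of 18 tested genes were higher and 3 lower, against 18.3% and 25.7% of all genes. For 10 of the 18 the tested probes were not all called alike. The retinoic acid receptor gene Rarg rose by 1.25 ± 0.26 log2, the retinoid X receptor gene Rxra by 0.95 ± 0.23 and the orphan receptor gene Nr2f1 by 1.35 ± 0.24 log2. With scaling to the E1A probes they were at -0.82, -1.12 and -0.72, and Rxra also lost its call without any 1 of the 4 arrays, at 0.88 to 1.02 log2, with median centring (0.63), with normexp (0.77), with no filter on dim probes and in the authors' deposited table (0.72). Rarg lost its call without GC-1 replicate 1 (1.05 log2, limma's adjusted p = 0.0648) and without GC-2 replicate 1 (1.16 log2, limma's adjusted p = 0.0539). Rara was at -0.65 ± 0.27 log2 (SE, limma's adjusted p = 0.104), with its other probe called lower, and was called lower with median centring, with an intensity trend, by the mean of its probes and in the authors' deposited table, at -1.08 to -0.65 log2, and with scaling to the E1A probes, at -2.72. Rarb, itself a target of retinoic acid, was dim and at 0.79 ± 0.68 log2, its GC-2 arrays 2.12 log2 apart. It was called higher at 1.85 log2 without GC-2 replicate 2 (limma's adjusted p = 0.0130) and at 1.15 with normexp, and without GC-2 replicate 1 it was at -0.27. Rxrb was at 0.05 ± 0.24 log2, while 2 of its 3 probes were higher. It was called higher at 1.29 log2 by the mean of its probes (limma's adjusted p = 0.0118) and at 1.24 in the authors' deposited table (limma's adjusted p = 0.0264). Rxrg could not be tested.

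Of 26 known retinoic acid target genes, 15 were tested, 1 was higher and 7 were lower, against 18.3% and 25.7% of all genes. The transcriptional repressor gene Bhlhe40 fell by 3.20 ± 0.25 log2 (SE, limma's adjusted p = 0.000677), the antiproliferative gene Btg2 fell by 2.97 ± 0.26 log2 and the chemerin gene Rarres2 fell by 2.46 ± 0.43 log2. For Btg2 1 of 2 tested probes was called lower, and it was at -1.73 log2 by the mean of its probes and at -1.78 in the authors' deposited table, called in both. Rarres2 lost its call without GC-1 replicate 1 (-2.30 log2, limma's adjusted p = 0.0622), and was at -1.26 with normexp, at -1.87 without GC-2 replicate 1 and at -3.06 without GC-2 replicate 2, called each time. The homeobox gene Hoxd4 rose by 2.54 ± 0.72 log2 (SE, limma's adjusted p = 0.0346). Its GC-1 arrays, at 58.5 and 290.4, were further apart than those of GC-2, at 467 and 220.4, and it was at 1.41 log2 without GC-1 replicate 1 and at 3.66 without GC-1 replicate 2, called in both. It was at 1.95 with normexp, and lost its call with scaling to the E1A probes (0.47), with no filter on dim probes, in the authors' deposited table (2.49), without GC-2 replicate 1 (2.52 log2, limma's adjusted p = 0.0922) and without GC-2 replicate 2 (2.55 log2, limma's adjusted p = 0.0993). Stra8, the gene that retinoic acid switches on at meiotic entry, was well above background on GC-1 replicate 1 alone, at a signal of 12.3. Kit, another such target in spermatogonia, was above it on no array.

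Markers of other cell types also differed between the lines, some lower and some higher in GC-2. All 10 tested of 11 mesothelial markers were lower in GC-2, and their summed signal, as a multiple of the array's 75th percentile, was 873 and 982 in GC-1 against 7.01 and 5.26 in GC-2. Lrrn4 was well above background on no array. Among all 17437 genes, each at its brightest tested probe, 18.3% were higher in GC-2 and 25.7% were lower. Sertoli cell markers summed to 585 and 484 in GC-1 and to 81.7 and 51.1 in GC-2, with 7 of 12 tested lower and 3 higher, and Amh and Cldn11 were above background on no array. Wt1 is in both lists. Leydig cell markers went the other way, from 0.408 and 0.438 in GC-1 to 12.6 and 14.7 in GC-2, with 3 of 4 tested higher, 1 lower, and Hsd3b1, Hsd3b6 and Lhcgr above background on no array. Nr5a1 alone gave 10.9 and 11.9 of the GC-2 sums, and without it the sums were 0.256 and 0.275 in GC-1 and 1.70 and 2.72 in GC-2. Peritubular myoid markers summed to 12.0 and 11.7 in GC-1 and to 35.1 and 43.8 in GC-2, with 4 of 7 higher and all 7 well above background on at least 1 array. Of these sums Acta2 gave 8.36 and 8.67 in GC-1 and 25.6 and 34.2 in GC-2. Of the 3 tested Acta2 probes 1 was called higher. Clu gave 265 and 203 of the Sertoli cell sums in GC-1 and 66.0 and 35.9 in GC-2. Germ cell markers summed to at most 0.851 on any array. The part of these cell types in the differences of Rbp4, Stra6, Crabp1 and Cyp26b1 was not tested.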

How the data were processed

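RNA of each line was hybridized to 2 one-colour Agilent arrays. Line and replicate number come from the sample titles. Per the file headers, the authors made the deposited processed intensity with Agilent Feature Extraction 11.5.1.1, which subtracts the background from the Cy3 brightness of a spot, removes spatial trends and does not scale arrays to each other. Flags of 0 or 1 per spot are deposited with it. The authors' deposited series table holds log2 values, 1 per gene name. For 25183 genes with 1 probe these differed from the log2 processed intensity by 1 constant per array (SD 0.0224 to 0.0290), and the column medians were -3.78, -3.67, -3.64 and -3.53. How the table combines several probes of a gene is not stated.

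Control spots and irregular spots (92 to 224 per array) were left out, log2 processed intensity was averaged per probe, and the 75th percentile of the array was subtracted. No spot was saturated. A probe counted as well above background where over 50% of its spots were, and it was tested if this held for both replicates of a line and all 4 arrays gave a value. The test was limma 3.58.1 (lmFit, eBayes, two-sided, R 4.3.3) with Benjamini-Hochberg adjustment over 36692 probes and a threshold of 0.05. The code was tried on data simulated from limma's own fitted means and variance model, which cannot test that model. Where neither replicate of a line measured a probe but both of the other did, the lower bound is written as at least N-fold. It sets the brighter line's mean against the lowest signal well above background on each array of the other, or against the probe itself if that is brighter. Names came from the RefSeq table of GRCm38.p6, by accession for 32994 probes, by symbol for 10224 and by synonym for 520, while 12867 kept their name in the files. Probe positions are on mm9. Promoter sequences are RefSeq's and were found for 7 of the 9 members.

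All members are named. Of each pathway list, up to 4 called genes with the largest change are named, with the RAR and RXR genes, Lrat, Rdh10, Dhrs3, Cyp26c1 and Stra8 whatever their values, and the 3 genes most like each called member. Some genes that this rule would name are counted in their lists and not reported here. Kit is named as a marker. The members and lists were chosen with earlier results of these data known. Other scalings, background correction, filters, variance models and left-out arrays were tried.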

Additional observations from a re-analysis of the deposited data

How the results depend on the processing

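With 2 arrays per line, dim signal and scaling set the limits. Rbp4, Stra6, Crabp1 and Cyp26b1 kept direction and call under all 14 alternatives tried for them. The counts of member probes without 1 array ranged from 2 to 4 higher and from 2 to 3 lower, those of listed genes from 4 to 6 higher and from 16 to 19 lower, and those of all probes from 5755 to 7401 higher and from 4928 to 6168 lower. A lone array was assumed to vary like the other line. Rxrb ranged from -0.092 (without GC-1 replicate 2) to 0.19 log2 and Rarb from -0.27 (without GC-2 replicate 1) to 1.85 log2.

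Scaling to the E1A probes lowers every difference by construction. It left 2 members higher, no (0) listed gene higher and 57 lower, and 1680 probes higher and 29907 lower. It turned Aldh1a2 to -0.15, Cyp26a1 to -0.85, Dgat1 to -0.88, Rbp3 to -0.22, Rarb to -1.28, Rarg to -0.82, Rxra to -1.12, Rxrb to -2.02 and Nr2f1 to -0.72 log2. Median centring put Rxrb at -0.27. With normexp 5037 probes were lower, Rbp7 was at 0.58 and Rxrb at -0.061. Rxrb was called higher by the mean of its probes (1.29) and in the authors' deposited table (1.24). The authors' deposited table, with fewer features, gave 4541 rows higher and 4468 lower. The mean of a gene's probes gave 11 listed genes higher. The limit at the brightest ERCC probe, chosen after seeing the data, left 2 members higher; Aldh1a2 and Cyp26a1 were not tested there. The causes of the other changes were not tested.

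Arrays with the same replicate number deviated together with a correlation of 0.146 over 30316 probes, and 2 pairs do not establish a pairing. With the replicate number as a block, 9132 probes were higher and 8200 lower, 4 members were higher and 3 lower, and 8 listed genes were higher and 23 lower; Aldh1a1 was called at -2.58 log2 (limma's adjusted p = 0.0222).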
